A study of Mus musculus with 22 samples.

Results

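Single-cell RNA profiles were collected from blood of aged mice without tumours, and the myeloid cells among the sorted cells were compared between mice labelled null and mice labelled heterozygous (het) for Nalcn, the gene of a sodium leak channel. The cells were sorted for ZsGreen, a fluorescent lineage tag, after red cell lysis, and are called ntCZC. All mice carried Prom1-CreERT2, a tamoxifen-inducible recombinase driven by the promoter of Prom1, and the Rosa26ZSG reporter, so both groups shared the driver and the tag, on a mixed genetic background. By the study's methods tamoxifen was given either to newborn or to adult mice, and the labels do not say which applied to a mouse. Because Prom1 is active in progenitors of several tissues, the tag is designed to mark descent from such cells and not a tissue. The study states that the driver left blood-forming cells of the bone marrow unrecombined. How the myeloid cells here came to be sorted as tagged was not tested. The null group comprised 4 libraries, 3 from females of 551, 612 and 613 days and 1 from a male of 552 days. The het group comprised 4 libraries, 3 from males of 610, 551 and 551 days and 1 from a female of 649 days. Het replicates 2 and 4 were both from males of 551 days, and whether they came from 1 mouse is not stated. Because the labels name no animals, p-values measure the spread between these libraries.

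A barcode, which stands for 1 droplet, counted as myeloid by 4 criteria chosen from the same readout. It needed at least 500 detected genes, at most 25% of its unique molecular identifiers (UMIs, which count captured transcripts) from mitochondrial genes, at least 1 UMI in 2 or more of Csf1r, Lyz2, Cx3cr1 and Adgre4, and no UMI of Cd79a, Cd3e, Prg4 or Retnlg. These picked 935 barcodes of 1923 in the 8 libraries and of 179929 in the 22 libraries of the series. Of the 1505 barcodes that met the gene and mitochondrial limits, 43 had a UMI of exactly 1 of the 4 positive genes and none of the negative genes, and 132 had enough positive genes but a UMI of a negative gene. The threshold on genes left few barcodes near it, with 13 members less than 100 genes above it and 16 otherwise eligible barcodes up to 100 genes below it. There were 425 members in null and 510 in het libraries. By library they numbered 40, 231, 15 and 139 in null replicates 1 to 4 and 50, 28, 21 and 411 in het replicates 1 to 4. Their summed UMIs ran from 120985 in null replicate 3 to 1845001 in het replicate 4, so the libraries differed widely in precision. A wild-type (wt) library, from a male of 571 days, held 315 members by the same criteria and is given beside the others as a description. The other wt library held 0 members among 8 barcodes within the limits.

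Monocytes are white blood cells that leave the bone marrow, circulate and are replaced continually. In the mouse, classical monocytes carry Ly6C and the chemokine receptor CCR2 and enter inflamed tissue. Nonclassical monocytes derive largely from them, need the nuclear receptor Nr4a1, carry CX3CR1, and patrol the vessel wall. The colony-stimulating factor receptor Csf1r serves the whole lineage, Lyz2 encodes lysozyme, and Adgre4 encodes an adhesion receptor of nonclassical monocytes and some macrophages.

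In 7 of the 8 libraries the members carried genes of nonclassical monocytes. Treml4, a receptor of these cells, had a UMI in 66.7% to 82.1% of members of those 7 libraries, and the B-like barcodes of all 8 libraries (a Cd79a UMI and fewer than 2 of the positive genes) had one in 1 of 250. Spn, Ace and Nr4a1 were detected in 53.3% to 78.6%, 60% to 85.7% and 46.7% to 93.5% of members of the 7 libraries, and in 9, 1 and 24 of the 250 B-like barcodes. The B-like share reached 21.4% for Spn in null replicate 1 (3 of 14) and 20.7% for Nr4a1 in null replicate 4 (12 of 58). Het replicate 3 stood apart. Treml4, Spn and Nr4a1 each had a UMI in 23.8% of its 21 members. For Spn and Nr4a1 this was near those highest B-like shares of other libraries. Among its own 76 B-like barcodes, Spn and Nr4a1 each had a UMI in 4 (5.26%) and Treml4 in 0. Ace had a UMI in 6 of the 21 (28.6%) and in 0 of the 76 B-like barcodes of that library. Of the genes used for selection, given here as a description, Cx3cr1 had a UMI in 28.6% and Adgre4 in 23.8% of these members, and 14 of the 21 carried exactly 2 of the 4 positive genes. Of these 21, 12 had a UMI of a C1q gene (57.1%, 95% interval 34.0 to 78.2) and 15 had a UMI of Retnla (71.4%, 47.8 to 88.7). Among its 76 B-like barcodes, 6 had a C1q UMI (7.89%) and 4 a Retnla UMI (5.26%), at a median of 10333.5 UMIs. C1qa, C1qb and C1qc encode the recognition protein of the classical complement pathway and, like Retnla, are expressed in macrophages. In the other 7 libraries the C1q share was 0.973% to 26.7%, highest in null replicate 3 (4 of 15), het replicate 1 (10 of 50) and null replicate 1 (6 of 40), and the Retnla share was at most 8%, beside 11 and 5 of the 250 B-like barcodes of all 8 libraries, so the lower of these shares are at background. The macrophage genes Fcna, Folr2, Mrc1 and Lyve1, named after their values were seen, stood at 2277, 638, 645 and 624 CPM (UMIs of the gene as a rate of all UMIs summed over the members of a library, scaled to counts per 1e6) in het replicate 3 and at no more than 143 CPM in any other library. Intervals here are exact binomial 95% intervals and cover counting error only. Median UMIs per member were 5141 in het replicate 3 and 4077 to 9127 in the other libraries.

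**Figure D1:**
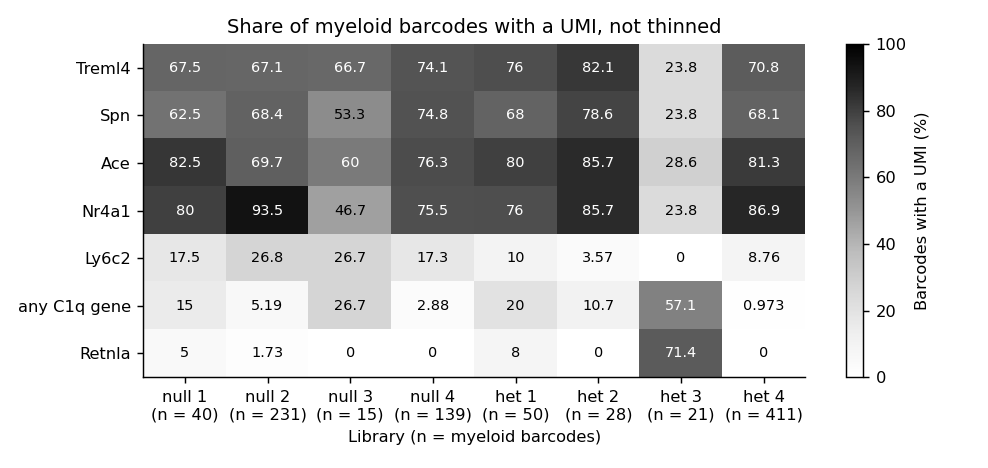
Share of myeloid barcodes with at least 1 UMI of a gene, in percent, for the 8 null and het libraries (columns, with the number of myeloid barcodes) and 4 nonclassical monocyte genes, Ly6c2, any C1q gene and Retnla (rows), without thinning. Het replicate 3 has the lowest shares of Treml4 (23.8%) and the highest of C1q (57.1%) and Retnla (71.4%).

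Het replicate 3 was also the sole female het library. With sex as a covariate, the null-to-het difference is in effect the average of a female comparison, 3 null libraries against het replicate 3, and a male comparison, null replicate 2 against 3 het libraries. The genotype effect in females and what sets het replicate 3 apart cannot be told apart, and the gene and list results are given without this library in 2 further fits. The second fit leaves out het replicate 3 and the sex term together. The third leaves out het replicate 3 and keeps sex, and rests in effect on null replicate 2 against the 3 male het libraries, so that the female null libraries do not bear on its differences. Its null arm is thus 1 library, assumed to vary like the others, and its p-values take their spread from the het libraries and the female null libraries. The makeup of het replicate 3 was not tested as a cause of any result. Whether its label as sorted blood is right was not tested. Its markers set it apart, and it held 199 barcodes with a member median of 2.56% mitochondrial UMIs. The other null and het libraries held 50 to 621 barcodes, with medians of 1.82% to 2.44%. Libraries of pooled solid organs in the series held 1856 to 27857 barcodes, with medians of 6.75% to 15.9%. A wrong label would change what the female and the sex-adjusted differences compare. No barcode sequence was shared between any of the 45 library pairs of ntCZC. Replicates of a group differed by 1.99 to 20.5 times the counting expectation (chi-square per degree of freedom over genes, 12 pairs). The lowest value was that of het replicates 2 and 4, the pair alike in sex and age, and a value above counting error does not show that libraries came from different mice. No library was counted as a repeat of another. Xist and the Y-linked genes Ddx3y and Eif2s3y matched the labelled sex in all 8 libraries.

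Marker lists of T and NK cells, basophils and mast cells, endothelium and fibroblasts summed to little. The criteria had already removed 132 otherwise eligible barcodes with a UMI of Cd79a, Cd3e, Prg4 or Retnlg. Low sums of B cell, T cell, neutrophil and peritoneal macrophage markers are therefore partly set by the selection. Over the 8 libraries the T and NK cell list reached at most 17.9 CPM, the basophil and mast cell list 3.90 CPM, the endothelial list 0.599 CPM and the fibroblast list 0 CPM, with Gzma, Ncr1, Ms4a1, S100a9, Ly6g, Ppbp and Gata6 among the markers at 0 in every library. B cell markers summed to 74.0 to 152 CPM in null and 104 to 151 in het libraries, neutrophil markers to 81.8 to 126 and 65.3 to 147, and erythroid markers to 40.7 to 121 and 0 to 68.3. Het replicate 3 was highest for platelet markers (406 CPM, all of it Pf4, against at most 62.8 elsewhere), peritoneal macrophage markers (427 against at most 66.3), dendritic cell markers (525 CPM) and epithelial markers (203 CPM, all of it Krt19, against at most 1.32). Dendritic cell markers were also at 370 CPM in null replicate 1 and 479 CPM in null replicate 3, and at 16.8 to 92.2 CPM in the other 5 libraries. No member had over 1% platelet and haemoglobin UMIs.

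The first question was whether barcodes counted as myeloid made up a different part of the tagged blood cells of null mice. The negative genes had removed otherwise eligible barcodes unevenly, 36, 10, 4 and 19 in null replicates 1 to 4. In het replicates 1 to 4 they removed 9, 11, 38 and 5. The shares leave these barcodes out of the members, so a low share need not mean few barcodes with myeloid genes. The members were 35.1%, 83.1%, 50% and 61.0% of the barcodes within the limits in null replicates 1 to 4 and 49.0%, 45.9%, 14.3% and 75.4% in het replicates 1 to 4. The groups overlapped. The mean share was 57.3% ± 20.2 in null and 46.2% ± 25.03 in het libraries (SD, n = 4 each), and the difference of 11.1 percentage points was within the spread between replicates (exact two-sided permutation test over libraries, p = 0.514, smallest possible 0.0286). Without het replicate 3 it was 0.509 points (exact permutation p = 0.971). Within each sex every null library lay above every het library, although in females the het side is het replicate 3 alone and in males the null side is null replicate 2 alone. When labels were exchanged within sex, p was 0.125, the smallest this exact permutation can give, so it cannot pass a threshold of 0.05. Median UMIs per member were 5173, 6282, 9127 and 5196 in null and 7096.5, 5379, 5141 and 4077 in het libraries, a mean difference of 1021 UMIs that also lay within the spread (exact permutation p = 0.429), and of 927 UMIs without het replicate 3 (exact permutation p = 0.571).

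**Figure D2:**
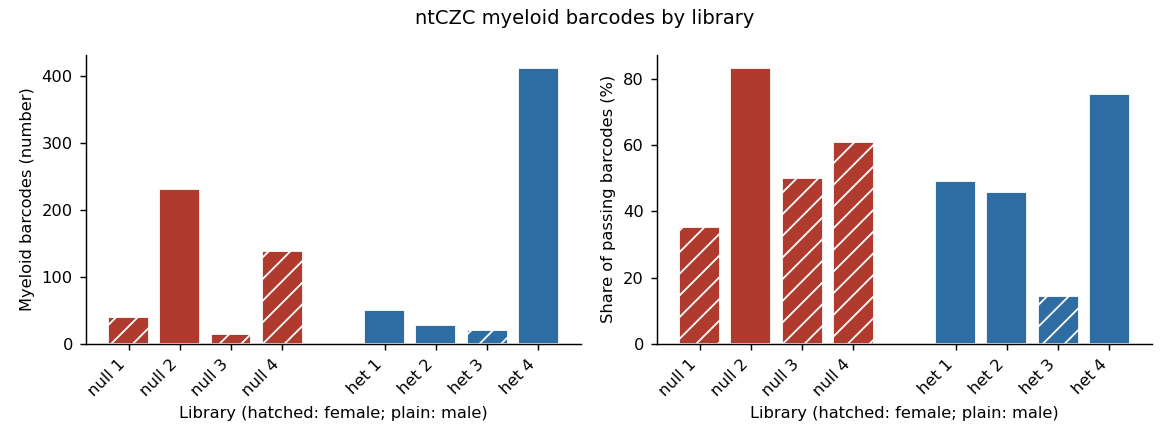
Number of myeloid barcodes (left) and their share of the barcodes within the limits in percent (right) in each null (red) and het (blue) library, with hatched bars for females and plain bars for males. The numbers range from 15 to 411 and the shares of the 2 groups overlap, with the lowest share (14.3%) in het replicate 3.

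Gene by gene, no difference between null and het myeloid cells passed the test. Of 4324 genes tested in UMIs summed per library, 0 passed an adjusted p of 0.05 in the edgeR quasi-likelihood test with sex as covariate (0% of genes tested). At an unadjusted p below 0.05 there were 326 genes (7.54%), 124 higher (2.87%) and 202 lower (4.67%) in null. DESeq2, which left the adjusted p blank for 3521 genes, called 10 of the other 803 (1.25%). Of these, Emb, Fos, Gm9733, H2afz, Ms4a6c, S100a4 and Tmsb10 were higher and Ctsd, Lgmn and Marcks lower in null, and in all 10 het replicate 3 held the lowest or highest value of the 8 libraries. In the third fit their edgeR log2 differences had the same signs, with sizes from 0.47 (Tmsb10) to 1.43 (Fos). Without the sex term edgeR again called 0 genes, and 39 (0.902%) were higher and 41 (0.948%) lower at an unadjusted p below 0.05. Leaving out het replicate 3 and the sex term together left 0 of 5004 genes called, with 70 (1.4%) higher and 46 (0.919%) lower at that level. In this second fit sex and genotype are partly mixed, since all 3 remaining het libraries are male. The third fit also left 0 of 5004 genes called, with 71 (1.42%) higher and 65 (1.3%) lower at that level. The 4 null and 4 het libraries did not overlap in CPM for 38 genes higher in null (0.879% of genes tested) and 40 lower (0.925%). The smallest unadjusted p was that of AI839979, an uncharacterised transcript, which overlapped between the groups, with a log2 difference of 1.93 ± 0.37 (edgeR adjusted p = 0.346) that was 0.999 in the second fit and 1.91 in the third. Because none passed the test, the genes below are described by their values, ordered by unadjusted p within a direction or a list, and a log2 difference is null minus het ± SE.

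Ly6c2, which encodes the Ly6C antigen of classical monocytes (chr15:75108158-75111970, minus strand, mm10), led the genes whose libraries did not overlap. More cells with the transcript and more transcript per cell cannot be told apart in summed UMIs. The gene stood at 121, 140.2, 57.9 and 89.7 CPM in null replicates 1 to 4 and at 42.7, 5.76, 0 and 52.6 CPM in het replicates 1 to 4. All 4 null libraries lay above all 4 het libraries, although the null library closest to the het range, replicate 3, rested on 7 UMIs, and 0 UMIs in het replicate 3 allow up to 21.0 CPM. The wt library, at 249 CPM, was higher than any null library. The log2 difference was 2.13 ± 0.51 (edgeR adjusted p = 0.412), 1.40 in the second fit and 1.75 in the third. It depended on which libraries entered. It was 8.66 without null replicate 2 and 7.92 in female libraries only, fits in which the female null libraries are set against het replicate 3 alone, at 0 UMIs, so that the fitted value is no bound on the difference. Ly6c2 passed an adjusted p of 0.05 in edgeR in the female libraries (0.0118) and with no filter on low counts, and in no other alternative that gave it an adjusted p. DESeq2 gave it none (unadjusted p = 5.3e-05).

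The share of members with a Ly6c2 UMI was also higher in every null than in every het library before thinning, with the libraries of a group in another order than by CPM. Without thinning it was 17.5%, 26.8%, 26.7% and 17.3% in null and 10%, 3.57%, 0% and 8.76% in het libraries, and 24.8% in the wt library. The difference of 16.5 percentage points had an exact two-sided permutation p of 0.0286, the smallest that 4 against 4 libraries can give. B-like barcodes, which should lack the gene, had a Ly6c2 UMI in 1 of 250, at median UMIs of 2256 to 10333.5 per library. Thinning to 2000 UMIs left out 70 shallower members, 31 in null and 39 in het libraries, of which 35 were in het replicate 4. The shares of the others were 8.11%, 13.6%, 14.3% and 9.02% in null and 2%, 0%, 0% and 5.32% in het (exact permutation p = 0.0286). At 1000 UMIs, which left out 12 members (3 in null and 9 in het libraries) and was the depth fixed for the main comparison, they were 2.50% (95% interval 0.0633 to 13.2), 7.79% (4.68 to 12.0), 13.3% (1.66 to 40.5) and 4.41% (1.64 to 9.36) in null and 0%, 0%, 0% and 2.74% (1.37 to 4.84) in het. Null replicate 1 then lay below het replicate 4, the difference was 6.33 points (exact permutation p = 0.0571, and 6.10 points with p = 0.114 without het replicate 3), and 0 of 50, 28 and 21 barcodes in het replicates 1 to 3 allow shares of up to 6%, 10.7% and 14.3%. At 500 UMIs the difference was 1.73 points (exact permutation p = 0.371). When labels were exchanged within sex, where p cannot fall under 0.125, it was 0.125 at 1000 UMIs.

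The other classical monocyte genes overlapped between the groups. Of 9 tested, Ly6c2 among them, 3 were higher in null at an unadjusted p below 0.05 (Ly6c2, S100a4 and Hp) and 0 lower. Of all genes, 2.87% were higher and 4.67% lower at that level. The median log2 difference of the 9, Ly6c2 included, was 0.59, against -0.01 over all genes. Without het replicate 3 and the sex term 2 of 9 were higher, Ly6c2 and Chil3, beside 1.4% of all genes, and the median was 0.58. In the third fit, whose null arm is in effect null replicate 2 alone, the median was 1.27. Chil3, a chitinase-like protein, stood at 105 to 401 CPM in null and at 223, 80.7, 2389 and 81.3 CPM in het libraries, with log2 differences of -0.93 in the first fit, 1.07 in the second and 1.63 in the third. S100a4, a calcium-binding protein, stood at 795, 2218, 1984 and 1861 CPM in null and 1248, 1447, 364 and 1274 CPM in het libraries (log2 1.35 ± 0.36, edgeR adjusted p = 0.412, and 0.40 in the second fit and 0.75 in the third). Its groups overlapped through null replicate 1. Hp (haptoglobin) and Plac8 had log2 differences of 0.84 and 1.19, which were 0.34 and -0.13 in the second fit and 1.02 and -0.17 in the third. Ccr2, named after its values were seen, had a UMI in 20%, 55.4%, 46.7% and 32.4% of null members and in 54%, 32.1%, 19.0% and 18.2% of het members, so its shares overlapped. The summed list stood at 4555, 7194, 4868 and 5230 CPM in null replicates 1 to 4 and at 4670 to 5745 CPM in het libraries. Only null replicate 2 lay above the het range.

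**Figure D3:**
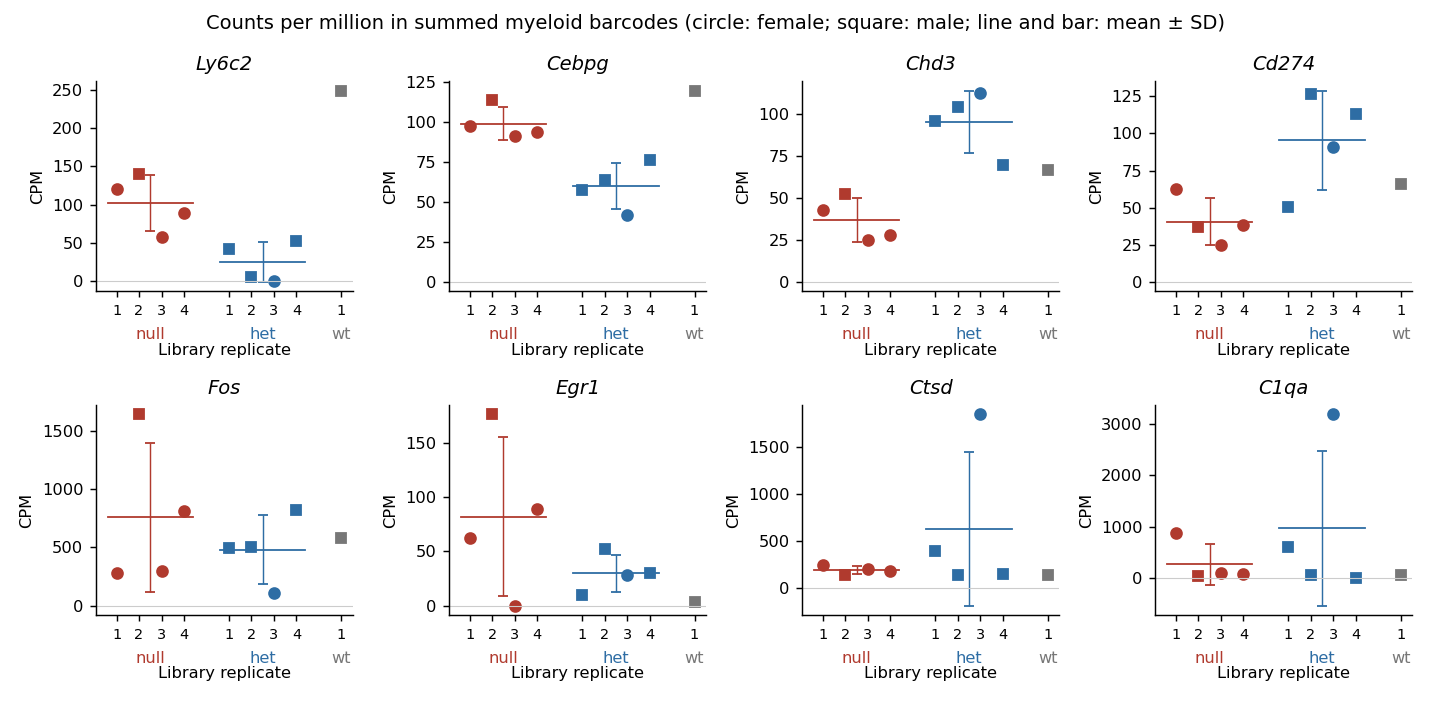
CPM of 8 genes in the summed myeloid barcodes of each library on linear axes, with null in red, het in blue and wt in grey, circles for females and squares for males, and lines and bars for the mean ± SD of 4 libraries. Ly6c2, Cebpg and Chd3 do not overlap between null and het, Cd274 overlaps in 1 null and 1 het library, and het replicate 3 is highest for Ctsd and C1qa (1843 and 3195 CPM).

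The other genes higher in null without overlap showed smaller differences. Emb (embigin, a transmembrane glycoprotein; chr13:117208536-117274415) stood at 238, 332, 223 and 240.0 CPM in null and 211, 184, 77.1 and 213 CPM in het libraries, with a log2 difference of 1.01 ± 0.26 that was 0.39 in the second fit and 0.70 in the third. Cebpg, a bZIP transcription factor (chr7:35046422-35056573), stood at 97.4, 114, 90.9 and 93.6 CPM in null and 57.7, 63.4, 42.0 and 76.4 CPM in het libraries. Its log2 difference was 0.86 ± 0.26, with 0.59 in the second fit and 0.74 in the third, and its wt value of 119.6 CPM was on the null side. Tm6sf1, Hypk, Vmp1 (a protein of autophagosome formation) and Slc25a5 (a mitochondrial adenine nucleotide carrier) had log2 differences of 0.81, 0.89, 0.84 and 0.75, of 0.49, 0.85, 0.83 and 0.25 in the second fit and of 0.87, 0.74, 0.95 and 0.27 in the third. Rps27rt and Rpl13a had 0.86 and 0.67, with 0.48 and 0.74 in the second fit and 0.59 and 0.62 in the third. Since ribosomal protein genes have near-identical processed copies, the counts of both are uncertain.

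Among genes lower in null without overlap, Chd3, an ATPase of the NuRD chromatin remodelling complex (chr11:69343273-69369406, minus strand), came first. It stood at 42.9, 52.1, 24.8 and 27.7 CPM in null and at 95.4, 104, 112 and 69.4 CPM in het libraries, and at 66.3 CPM in the wt library. The null group lay wholly below the het group, with 3 to 87 UMIs behind each null value. The log2 difference was -1.11 ± 0.33 (edgeR adjusted p = 0.476), -1.06 in the second fit and -0.71 in the third. With 3 of 4 positive markers required it was -0.51. Bcl7b, a subunit of the BAF chromatin remodelling complex, stood at 54.6, 49.1, 33.1 and 51.4 CPM in null and 57.7, 80.7, 119 and 83.5 CPM in het libraries (log2 -0.87 ± 0.29, with -0.58 in the second fit and -0.60 in the third). Banp and Arih2 had -0.89 and -0.65 in the first fit, -0.83 and -0.57 in the second and -0.86 and -0.73 in the third. Pdcd6ip (an ESCRT-associated protein), Tcf4, Surf4 (a cargo receptor of the endoplasmic reticulum), Cflar (an inhibitor of death-receptor caspase activation), St6galnac4 and Cndp2 had log2 differences between -0.98 and -0.73 in the first fit, between -0.59 and -0.29 in the second and between -0.56 and -0.13 in the third. For Pdcd6ip, Surf4 and Cflar het replicate 3 stood far above the other het libraries.

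Nonclassical monocyte genes did not move together. Of 14 tested, 0 were higher and 3 lower in null at an unadjusted p below 0.05 (2.87% and 4.67% of all genes), with a median log2 difference of 0.49. With DESeq2 5 were higher and 3 lower at that level, beside 3.05% and 3.31% of all genes. Without null replicate 2, where the female null libraries are in effect set against het replicate 3 alone, the median was 1.41. In the second fit 2 of 14 were lower, Cd274 and Gngt2, with a median of -0.11, and in the third 1 was lower, Cd274, with a median of -0.15. Cd274, which encodes the immune checkpoint ligand PD-L1 (chr19:29367455-29388095), led the list at 62.4, 37.1, 24.8 and 38.2 CPM in null and 50.2, 127, 91.1 and 113 CPM in het libraries. Null replicate 1 lay above het replicate 1, and the remaining null libraries lay below every het library. The log2 difference was -1.26 ± 0.38 (edgeR adjusted p = 0.478), -1.21 in the second fit and -1.36 in the third. Cd36 and Fabp4, a scavenger receptor and a fatty acid carrier, had -0.997 and -1.12 in the first fit, -0.01 and -0.23 in the second and -0.27 and 0.053 in the third, with 610 and 469 CPM in het replicate 3 against at most 201 and 183 CPM in the other het libraries. Ace, the angiotensin-converting enzyme, stood at 388 to 545 CPM in null libraries and 404, 536, 91.1 and 616 CPM in het libraries, with 0.91 in the first fit, -0.10 in the second and -0.0100 in the third.

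Immediate early genes, which respond to stimulation within minutes and can also rise while cells are handled, came next. Of 11 tested, 5 were higher and 0 lower at an unadjusted p below 0.05 (2.87% and 4.67% of all genes), and the median log2 difference was 0.63. Fos, a subunit of the AP-1 transcription factor (chr12:85473890-85477273), stood at 281, 1646, 298 and 818 CPM in null and 492, 502, 105 and 825 CPM in het libraries. Null replicate 2 was high, het replicate 3 was low, and the other 6 libraries overlapped. When these 6 are ranked within their group, each null value lies below the het value of the same rank. That order runs against the sign of the log2 difference, but setting aside the highest null and the lowest het value favours it. The 6 libraries are also split by sex, female in null and male in het, so their order cannot be read as a genotype difference. The log2 difference of 1.71 ± 0.40 (edgeR adjusted p = 0.412) was 0.37 in the second fit and 1.43 in the third. Egr1, a zinc finger transcription factor, stood at 62.4, 177, 0 and 89.7 CPM in null and 10.0, 51.9, 28.0 and 29.8 CPM in het libraries, with 2.39 ± 0.58 in the first fit, 1.89 in the second and 2.67 in the third. The value of 0 in null replicate 3 allows up to 24.8 CPM, and the wt library was at 3.602 CPM. Dusp1, a phosphatase that inactivates MAP kinases, stood at 296, 1263, 562 and 832 CPM in null and 537, 496, 343 and 510 CPM in het libraries (1.02 ± 0.30, with 0.57 in the second fit and 1.30 in the third). Btg2 had 1.15, 0.03 and 0.50. Of the 11 genes 1 was higher in the second fit, Egr1 (1.4% of all genes), and the list median was 0.06. In the third 3 were higher, Fos, Egr1 and Dusp1 (1.42% of all genes), and the median was 0.24.

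The promoter windows of Fos, Dusp1 and Btg2 (RefSeq, GRCm38.p6, 250 bases before to 50 after the start of transcription) are shown because these genes are 3 of the 4 with the smallest unadjusted p in this list. Egr1, the other of the 4, was not searched, and the counts do not cover it. Capitals mark TGACG, the core of the cyclic AMP response element, on either strand, and in TGACGTCA the matches on the 2 strands overlap. Fos had 2 matches, Dusp1 3 and Btg2 2, beside 20.8% of 32851 mouse promoter windows with at least 1. The CArG box, the site of serum response factor, had 0 matches in these 3 windows and occurred in 1.63% of all windows. Sites more than 250 bases before the start were not searched, so 0 matches does not show that a gene lacks the box. The lines give Fos at chr12:85473640-85473939 (plus strand), Dusp1 at chr17:26508423-26508722 (minus strand) and Btg2 at chr1:134079106-134079405 (minus strand), each 5′ to 3′ on its own strand.
Fos: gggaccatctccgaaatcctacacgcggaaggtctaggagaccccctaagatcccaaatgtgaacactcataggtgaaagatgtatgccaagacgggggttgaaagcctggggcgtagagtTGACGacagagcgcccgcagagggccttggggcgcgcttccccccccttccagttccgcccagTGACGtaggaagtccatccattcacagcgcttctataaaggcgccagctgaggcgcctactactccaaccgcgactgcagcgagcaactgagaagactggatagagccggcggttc
Dusp1: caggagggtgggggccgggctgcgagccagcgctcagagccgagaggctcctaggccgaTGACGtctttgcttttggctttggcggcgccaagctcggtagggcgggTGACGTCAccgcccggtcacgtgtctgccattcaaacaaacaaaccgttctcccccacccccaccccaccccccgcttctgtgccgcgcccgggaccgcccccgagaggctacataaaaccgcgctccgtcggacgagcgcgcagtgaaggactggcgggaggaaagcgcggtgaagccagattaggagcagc
Btg2: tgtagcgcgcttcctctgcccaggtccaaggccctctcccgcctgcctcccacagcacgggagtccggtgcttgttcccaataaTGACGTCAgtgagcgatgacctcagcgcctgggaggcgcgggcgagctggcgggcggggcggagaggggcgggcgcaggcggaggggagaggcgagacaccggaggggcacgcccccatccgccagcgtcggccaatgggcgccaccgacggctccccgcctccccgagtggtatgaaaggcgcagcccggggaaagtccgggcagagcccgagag

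Among lysosomal, complement and lipid genes, every gene with an unadjusted p below 0.05 in the first fit was lower in null and highest in het replicate 3. Of 12 lysosome and phagocytosis genes tested, 0 were higher and 6 lower in null at an unadjusted p below 0.05, beside 2.87% and 4.67% of all genes, with a median log2 difference of -0.59. In the second and the third fit 1 was lower, Lgmn, beside 0.919% and 1.3% of all genes, and the median was -0.14 and -0.19. Ctsd, the protease cathepsin D, stood at 238, 131, 198 and 174 CPM in null and 387, 133, 1843 and 149.6 CPM in het libraries (-1.99 ± 0.46, edgeR adjusted p = 0.412, with -0.29 in the second fit and -0.78 in the third). Apart from het replicate 3 the groups overlapped. Lgmn, the protease legumain, had the smallest unadjusted p of the genes lower in null and stood at 210, 131, 157 and 169 CPM in null and 319, 236, 1044 and 189 CPM in het libraries (-1.72 ± 0.33, edgeR adjusted p = 0.346, with -0.55 in the second fit and -0.91 in the third). Its groups overlapped through null replicate 1. Ctsb and Ctsl, other cathepsins, had -1.14 and -1.47 in the first fit, -0.30 and -0.28 in the second and -0.33 and -0.71 in the third.

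The promoter window of Ctsd (chr7:142387778-142388077, minus strand) is shown with capitals at CACGTG, the E-box within the element through which TFEB-family factors act on lysosomal genes. The palindrome reads alike on both strands. It occurred 2 times in this window, 1 time in that of Ctsl and in 1 of the 2 windows of Lgmn, beside 7.15% of all windows, and Ctsb had no window in the table.
Ctsd: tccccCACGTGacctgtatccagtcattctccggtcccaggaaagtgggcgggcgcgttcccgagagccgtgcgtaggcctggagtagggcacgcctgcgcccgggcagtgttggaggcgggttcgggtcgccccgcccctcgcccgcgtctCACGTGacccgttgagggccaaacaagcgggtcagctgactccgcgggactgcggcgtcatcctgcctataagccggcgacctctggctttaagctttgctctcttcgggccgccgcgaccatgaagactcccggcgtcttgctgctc

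Of 6 complement components tested, 3 were lower in null at an unadjusted p below 0.05 (4.67% of all genes) and the median log2 difference was -2.13. It was 0.02 in the second fit with 0 lower and -1.48 in the third with 0 lower and 1 higher (C3). C1qa stood at 869, 32.4, 99.2 and 71.2 CPM in null and 613, 63.4, 3195 and 0.542 CPM in het libraries, a range within each group far wider than the difference between them (-3.02 ± 1.21, edgeR adjusted p = 0.617, with 0.24 in the second fit and -2.80 in the third). C1qc, C1qb and Cfp (properdin) had -2.87, -2.30 and -1.96 in the first fit, -0.64, -0.22 and 0.12 in the second and -2.65, -2.87 and -0.31 in the third. Of 11 lipid handling genes, 5 were lower at that level (median -0.69), and in the second fit 0 were lower, 1 was higher (Lpl, lipoprotein lipase) and the median was -0.03. In the third fit 0 were higher or lower and the median was -0.16. Among them Lipa, Fabp5 and Plin2 had -0.77, -1.001 and -0.70 in the first fit, -0.032, -0.18 and -0.13 in the second and -0.46, -0.16 and -0.47 in the third. Retnla, in the list of fibrosis-linked mediators, was at 4478, 655, 0 and 0 CPM in null and 2578, 0, 25152 and 0 CPM in het libraries, and that list had 1 of 6 genes higher (Thbs1, thrombospondin 1), 0 lower and a median of -0.12. In the second fit 1 of 6 was higher, Chil3, and the median was 0.52, and in the third 3 were higher, Thbs1, Fn1 and Chil3, and the median was 0.93.

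NF-kB signalling genes numbered 11 tested, with 0 higher and 3 lower at an unadjusted p below 0.05 (2.87% and 4.67% of all genes) and a median of -0.63, which was -0.12 in the second fit and -0.29 in the third, each with 0 higher and 0 lower. Nfkbiz and Nfkbia encode members of the I-kappa-B family, and Tnfaip3 encodes the deubiquitinase A20. Nfkbiz, Nfkbia and Tnfaip3 had -1.11, -0.91 and -1.73 in the first fit and -0.14, 0.067 and -0.72 in the second. In the third fit they had -0.26, -0.84 and -1.45. Tnfaip3 stood at 140.3, 38.3, 0 and 67.3 CPM in null and 40.2, 74.9, 315 and 169 CPM in het libraries, which overlapped. Nfkbie had -0.73, -0.22 and -0.44. Of 12 survival and p53 genes, 0 were higher and 3 lower, against the same shares of all genes (median -0.28). In the second fit 0 were lower (median -0.23), and in the third 1 was, Bcl2l11 (median -0.37). The list was led by Bcl2l11, which encodes the death-promoting protein BIM (-1.37 ± 0.40, with -0.65 in the second fit and -1.23 in the third), Mdm2 (-0.88, -0.040 and -0.51) and Cflar above, with Cdkn1a at -0.65, -0.20 and -0.34.

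Of 79 cytosolic ribosomal protein genes tested, 11 were higher and 1 lower in null at an unadjusted p below 0.05, beside 2.87% and 4.67% of all genes, with a median log2 difference of 0.35. The second fit had 4 higher and 0 lower, beside 1.4% and 0.919% of all genes, with a median of 0.088, and in the third 0 were higher or lower and the median was -0.026. Summed, these genes made up 182500 to 202330 CPM in null libraries and 189400, 181790, 123970 and 183110 CPM in het replicates 1 to 4, and het replicate 3 was the library that differed. Rpl27, Rpl10 and Rpl29 had 1.04, 0.63 and 0.73 in the first fit, 0.31, 0.29 and 0.15 in the second and 0.37, 0.14 and 0.17 in the third.

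**Figure D4:**
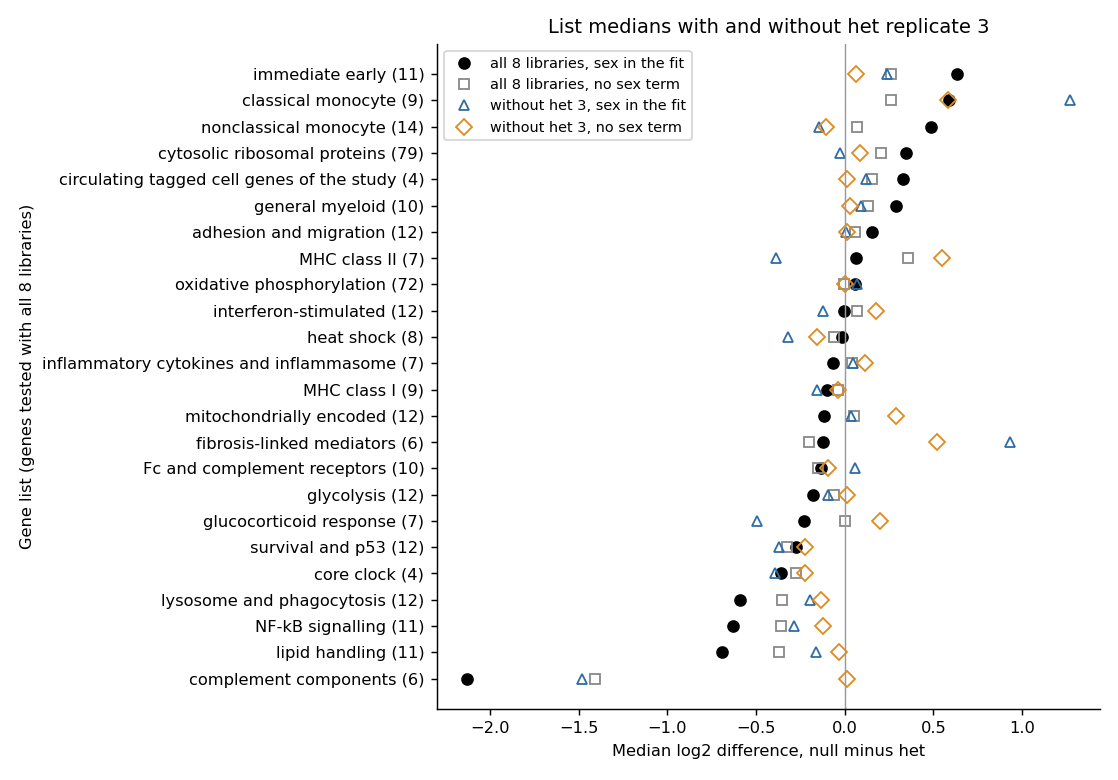
Median log2 difference, null minus het, of the genes of each list (rows, with the number tested with all 8 libraries) in the fit with sex (black circles), without sex (grey squares), without het replicate 3 with sex kept (blue triangles) and without het replicate 3 and the sex term (orange diamonds). Without het replicate 3 the complement median is -1.48 with sex kept and 0.02 without it, beside -2.13 with all libraries, and the classical monocyte median is 1.27 and 0.58, beside 0.59. Without het replicate 3 and with sex kept, the null side is in effect null replicate 2 alone.

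The remaining lists held few such genes. At an unadjusted p below 0.05, which 2.87% of all genes passed as higher and 4.67% as lower, genes higher and lower in null numbered 0 and 0 of 7 for MHC class II, 0 and 1 of 9 for MHC class I, 0 and 1 of 12 for interferon-stimulated genes, 0 and 1 of 7 for the glucocorticoid response, 0 and 0 of 8 for heat shock, 0 and 1 of 4 for the core clock and 2 and 0 of 10 for general myeloid genes. They numbered 0 and 2 of 10 for Fc and complement receptors, 0 and 0 of 7 for inflammatory cytokines and the inflammasome, 0 and 1 of 12 for adhesion and migration, 0 and 0 of 12 for glycolysis, 0 and 0 of 2 for proliferation, 1 and 2 of 72 for oxidative phosphorylation and 0 and 1 of 12 for mitochondrially encoded genes. The medians of these lists ran from -0.36 (core clock) to 0.29 (general myeloid), from -0.22 (core clock) to 0.55 (MHC class II) in the second fit and from -0.50 (glucocorticoid response) to 0.093 (general myeloid) in the third. The genes behind these counts, named after their values were seen, were Tyrobp and Lst1 (general myeloid, log2 differences of 0.61 and 0.82), Tapbp (MHC class I, -0.68), Gbp2 (interferon-stimulated, -1.37), Nfkbia, Bhlhe40 (core clock, -1.28), Fcgrt and C5ar1 (receptors, -1.42 and -0.94), Icam1 (adhesion, -0.86), Atp5c1 (0.66), Atp5g3 (-0.66), Cox6a1 (-0.58) and mt-Co1 (-0.46). In the second fit none of these genes had an unadjusted p below 0.05, while Tap2 was lower (-0.53) and mt-Cytb and mt-Nd4 were higher (0.32 and 0.37) at that level. In the third Bhlhe40 (-1.45) and Hsp90aa1 (-0.60) were lower and Cebpd (0.93) was higher. MHC class II genes, which present antigen, varied more within the groups than between them, with summed levels of 27528, 11328, 31930 and 11320 CPM in null and 16745, 16626, 17088 and 8672 CPM in het libraries. The 2 high null libraries were those in which dendritic cell markers were also high, and in the second fit both tested markers of that list, Cd209a and Clec10a, were higher in null at an unadjusted p below 0.05 (log2 2.76 and 2.18). In the third fit neither was, and the MHC class II median was -0.39 there. The part of these cells' markers in the MHC class II values was not tested.

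Nalcn itself, its channel partners Unc79, Unc80 and Fam155a, and Prom1 had 0 UMIs in the members of all 8 libraries, so these transcripts gave no check of the genotype labels. The smallest summed library sets the limit at 24.8 CPM and the largest at 1.63 CPM. Of the genes listed from the study's account of circulating tagged cells, 4 reached the level tested, all with UMIs in every library. Anxa2 (annexin A2), Lgals3 (galectin 3) and Krt80 (a keratin) are genes the study followed in the tagged cells. The product of the other, Ptprc, served the study as a marker of blood mononuclear cells, in contrast to the tagged cells. Ptprc, which encodes the leukocyte antigen CD45, stood at 1044, 1211, 1017 and 1468 CPM in null and 1149.8, 1291, 645 and 1276 CPM in het libraries, with log2 differences of 0.39 ± 0.25 in the first fit (edgeR adjusted p = 0.743), -0.027 in the second and -0.031 in the third. Anxa2 stood at 249, 666, 413 and 485 CPM in null and 482, 329, 448 and 382 CPM in het libraries, Lgals3 at 1314 to 1692 and 904 to 1518 CPM, and Krt80 at 124 to 174 and 119 to 206 CPM. These 3 overlapped between the groups, with log2 differences of 0.28 ± 0.28, 0.40 ± 0.19 and 0.10 ± 0.24 (edgeR adjusted p = 0.855, 0.672 and 0.978). In the second fit they were 0.23, 0.054 and -0.14, and in the third 0.73, 0.26 and -0.012, where Anxa2 had an unadjusted p below 0.05. Epcam, Cdh1 and Cdx2 had 0 UMIs in the 8 libraries. The study's text reports CDH1 and CDX2 as protein, in blood smears of tumour-bearing mice, and does not name Epcam. The values here are RNA in barcodes picked for myeloid genes, from mice without tumours. The haemoglobin gene Hba-a1 was at 0 UMIs in 4 of the 8 and at most 16.5 CPM in the others, and Hbb-bs reached at most 81.8 CPM. Of the 10 invasion and mesenchymal genes of the study, 0 reached the level tested and Mmp7, Mmp10, Sparc, Sfrp4, Cdh6 and Timp3 had 0 UMIs. The study reported these genes as raised by Nalcn deletion in isolated gastric stem cells. Their absence in myeloid barcodes does not bear on that result.

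The same criteria applied to the pooled solid organs of such mice gave 8761 barcodes in 9 libraries, 5 wt, 2 het and 2 null. Both het libraries were from males of 551 days, the null libraries from a male of 552 and a female of 611 days, and the wt libraries from 3 males of 571, 571 and 608 days and 2 females of 611 and 654 days. Unlike the blood fit, this fit held the wt libraries, which shared the estimates of spread and of the sex term. Their identity was not checked beyond the genes of the criteria, and 427 of the 482 in 1 null library carried exactly 2 of the 4 positive genes. Whether blood and organ libraries shared mice is not stated. Among 11458 genes tested between null and het, 0 passed an adjusted p of 0.05 in edgeR (0%). At an unadjusted p below 0.05, 332 (2.9%) were higher and 151 (1.32%) lower. DESeq2 called 9 of the 10528 genes with an adjusted p. Of these, Tff1, Tff2, Pgc, Dpcr1, Spink1, Pdzk1, Fbp1 and Ak4 were higher and Iigp1 lower in null. Whether their transcripts came from myeloid cells was not tested. Ly6c2, Chd3 and Cd274 had edgeR log2 differences of 0.16, 0.27 and 0.10 in the organs. Of the 20 genes selected by rank among those whose libraries did not overlap in blood, 11 had the same sign in the organs, and 0 had an unadjusted p below 0.05 there in either direction. Over the 4324 genes in both fits the sign was the same for 51.0%.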

How the data were processed

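Single-cell RNA was measured with 10x Genomics chemistry in 22 libraries, of which 8 were compared here. The authors deposited unnormalized UMI counts per gene and barcode (filtered matrices, mm10). The submitters' processing notes name Cell Ranger 2.1.1 and Seurat, while the matrix headers name Cell Ranger 3.0.2. No cell type calls were used, and no doublets were removed here. The members and gene lists were chosen with earlier results of these data known.

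Counts of members were summed per library (120985 to 1845001 UMIs) and fitted with edgeR 4.0.16 (quasi-likelihood, TMM, filterByExpr, sex as covariate, Benjamini-Hochberg adjusted p of 0.05), in R 4.3.3, with DESeq2 1.42.0 as an alternative. The code was checked on data with known answers. SE is the log2 difference over the square root of F. Shares and medians were compared by exact two-sided permutation over the 70 assignments of libraries. A count of 0 allows up to 3 counts. Coordinates are from GENCODE vM21, matched for 31011 of 31053 entries, and promoter windows from RefSeq GRCm38.p6.

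The text names up to 10 genes in each direction with the smallest unadjusted p among genes without overlap and a mean of at least 20 CPM, and up to 4 genes of a list by the smallest unadjusted p. The rule as written covered every list. After the values were seen it was narrowed to the 9 lists with at least 3 genes at an unadjusted p below 0.05 in 1 direction. Genes of the study's circulating cells were fixed. A gene that met the rule is not reported here. Alternatives changed the scaling, filters, tool, covariates, barcode limits, markers, thinning, pairing and libraries, and those without het replicate 3 and the sex term together, within 1 sex, or without C1q-positive barcodes were chosen after seeing the data.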

Additional observations from a re-analysis of the deposited data

Results flagged for a closer look

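In 27 of 134 groups of 4 libraries, 1 library lay far from the other 3 by Dixon's criterion. Chance meets this criterion in about 1 in 20 groups that were not chosen by their values. Many of these groups are genes named by their unadjusted p in the same libraries, so the 27 cannot be set against that rate. In 19 of the 27 the far library was het replicate 3. Its values were Pdcd6ip 210.2, Surf4 231, Cflar 168, Cd36 610, Nfkbiz 673, Cfp 1289, Lgmn 1044, Ctsd 1843, Ctsb 4126, Ctsl 357, Fabp5 266, Plin2 743 and Mdm2 189 CPM, each above the other het libraries, and Rpl10 1205 CPM and the ribosomal protein sum 123970 CPM, both below them. Its platelet, peritoneal macrophage, dendritic cell and epithelial marker sums were 406, 427, 525 and 203 CPM.

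In other libraries, Banp was low in het replicate 4 (30.9 CPM, against 34.6 to 35.1 CPM) and Arih2 was high in het replicate 2 (86.5 CPM). The MHC class II sum was low in het replicate 4 (8672 CPM, against 16626 to 17088 CPM), and the share of members with a Ly6c2 UMI at 1000 UMIs was 2.74% there and 0% in the other het libraries. In null libraries, C1qc (386 CPM) and C1qa (869 CPM) were high in replicate 1, Emb (332 CPM) in replicate 2 and the epithelial sum (1.32 CPM) in replicate 4.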

How the results depend on the processing

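The edgeR count of 0 called genes held in 22 of 30 alternatives. It was 10 with DESeq2 (of 803 genes with an adjusted p, which 28 of the 55 named genes lacked), 231 with no filter on low counts, 5 with a mean of at least 20 CPM, 2 with the wt library added, 346 in female and 1 in male libraries only, and 0 to 240 when 1 library was left out (240 without null replicate 2, 1 without het replicate 4). Of the 346 and 240, 219 were shared (63.3% and 91.3%), and both fits set 3 female null libraries against het libraries in which het replicate 3 is the sole female. Of the 231, het replicate 3 was highest or lowest of 8 in 223, and 98 had under 50 UMIs in all. In the organs it was 9 with DESeq2 and 3 with no filter (Tff1, Tff2 and Dpcr1, all among the 9). The difference in the Ly6c2 share passed at 2000 UMIs (9.42 points) and without thinning (16.5 points), and ran from 4.22 to 7.83 with 1 library left out at 1000 UMIs. That of the myeloid share ran from 0.509 (without het replicate 3) to 20.9 points, and that of median UMIs from 127 to 1579.

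Replicate numbers did not pair the libraries (correlations of same-numbered deviations -0.106 to 0.262). With a replicate block edgeR called 0 genes, with sex (209 at an unadjusted p below 0.05) and without it (68), and the block gave exact permutation p = 0.5 for the myeloid share and median UMIs.

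Of 1592 alternative values for 55 named genes, 22 in 8 genes changed sign. With 1 library left out, the log2 difference of Fabp4 ran from -2.55 to 0.053, of Ace from -0.0100 to 2.27, of Plac8 from -0.17 to 2.73, of Anxa2 from -0.28 to 0.73 and of Krt80 from -0.012 to 0.26, with the sign changed without null replicate 2 for Anxa2 and without het replicate 3 for the others. Without het replicate 3 and the sex term, Ace was -0.10, Plac8 -0.13, Nfkbia 0.067, C1qa 0.24, Cfp 0.12 and Krt80 -0.14. In males only, Fabp4 was 0.042, Ace -0.016, Plac8 -0.17 and Krt80 -0.017, and in females only Anxa2 was -0.16. The log2 difference of Krt80 was also -0.055 without sex, -0.041 with the replicate block without sex, -0.11 with 3 of 4 positive markers and -0.089 without C1q-positive barcodes, and without these barcodes and the sex term Krt80 was -0.16 and Ace -0.048. The cause of these changes was not tested. Precision was limited by the 15, 21 and 28 members of null replicate 3, het replicate 3 and het replicate 2.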
